A study of Mus musculus with 16 samples.

Results

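Brain melanocortin receptors were blocked in mice whose vagus nerve was intact, and the RNA of gonadal fat was sequenced. The comparison took the 8 of 16 libraries from sham-operated mice, chosen by their labels alone: 4 with SHU9119 in the cerebral ventricles (Sham_SHU1 to Sham_SHU4) and 4 with vehicle (Sham_Veh1 to Sham_Veh4). All mice were lean C57BL/6J males aged 16 weeks on standard chow. Infusion from osmotic minipumps began 4 weeks after surgery and ran for 2 weeks, with SHU9119 at 1 nmol per day, and food was matched in calories across the groups. Another 8 libraries, 4 with vehicle (VX_Veh) and 4 with SHU9119 (VX_SHU), came from mice given subdiaphragmatic vagotomy (sDVX) in place of sham surgery. They enter here through the low-count filter, the scaling and the shared estimate of the spread. They also enter the tests of SHU9119 after sDVX and of the difference between surgeries. Nothing in the labels ties a library to 1 mouse, and the p-values below therefore reflect only how these libraries vary, some of which may be technical.

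SHU9119 is a peptide antagonist of the melanocortin receptors MC3R and MC4R, which in the hypothalamus restrain feeding and act on peripheral metabolism through autonomic nerves. White fat cells store triglyceride made from fatty acids that are taken up from lipoproteins or built from glucose. The second route, de novo lipogenesis, runs from cytosolic acetyl-CoA through malonyl-CoA to palmitate and oleate, and shares its acetyl-CoA and its SREBP transcription factors with the cholesterol pathway. In the fat itself Mc3r was at 0 counts in the 8 sham libraries, and Mc4r at 0, 0, 0.0413 and 0.180 CPM under vehicle and 0, 0, 0.147 and 0.202 CPM under SHU9119, where CPM is the count scaled to a common library total and for library composition. The receptor genes Mc1r and Mc5r were low but present in all 8. Mc1r gave 1.11, 0.801, 1.45 and 1.76 against 1.19, 1.03, 0.883 and 1.31 CPM. Mc5r gave 0.458, 0.510, 0.826 and 0.359 against 0.569, 1.03, 0.294 and 0.555 CPM. Whether the peptide reached receptors in the fat was not tested.

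Library totals in the sham groups were 20904855 to 28617143 counts, with 18286 to 20253 genes seen. Fat cell markers were present in every library, their 10 genes summing to 25807 to 45104 CPM in Sham_Veh and 27352 to 34988 in Sham_SHU. Transcripts of the neighbouring male tract were present too. All 18 epididymis markers had counts, and their sum ranged from 4.96 to 659 CPM in Sham_Veh and from 10.2 to 3457 in Sham_SHU. The 15 testis and sperm markers summed to 69.0 to 3501 CPM and 107 to 1700.2 CPM. The 14 ciliated epithelium markers summed to 453, 444, 11.4 and 352 CPM in Sham_Veh1 to Sham_Veh4 and to 13.8, 25.2, 191 and 37.9 CPM in Sham_SHU1 to Sham_SHU4. Sham_Veh3 was thus the low vehicle library and Sham_SHU3 the high SHU9119 library for cilia. None of the 9, 15 and 14 members of these lists that passed the low-count filter was past the threshold of the test used below. The log2 difference of SHU9119 from vehicle was positive at 6, 0 and 0 of them, where 7207 of 16682 genes tested were positive. The list medians were 1.83, −0.87 and −2.3. These signs are not independent, since genes of a list share libraries, and Sham_Veh4 was the highest vehicle library at all 15 testis and sperm markers. In such bulk tissue, fewer cells of a type and less RNA per cell cannot be told apart.

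**Figure D1:**
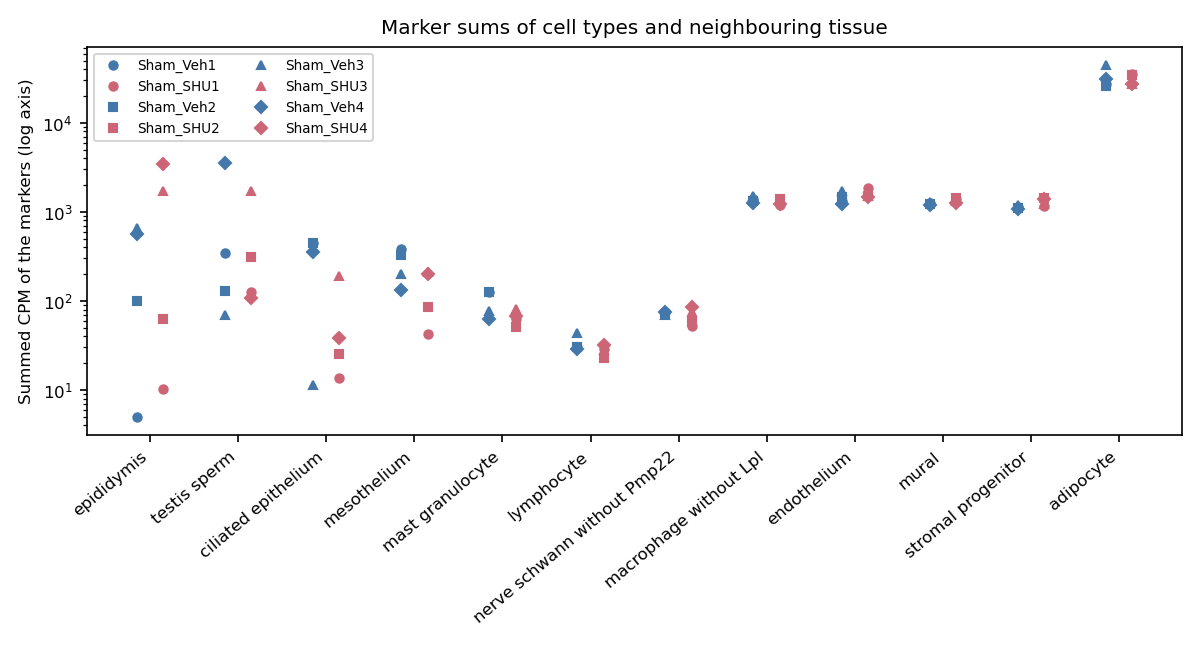
Summed CPM of marker genes (log axis) for 12 tissue and cell type lists in each of the 4 Sham_Veh (blue) and 4 Sham_SHU (red) libraries, with the marker shape giving the replicate number. The tract lists spread over more than an order of magnitude within a group, while fat, stromal, mural and endothelial sums lie close together.

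With an intact vagus, genes of fatty acid desaturation, sterol synthesis and acylglycerol assembly were among the few that rose under SHU9119. Of 16682 genes tested, 16 (0.0959%) rose and 3 (0.018%) fell, together 0.114%, by edgeR's quasi-likelihood test at a Benjamini-Hochberg adjusted p under 0.05. Among the 16 were Scd2, Insig1, Lss, Dhcr7 and Mogat2, with the cytochrome b5 gene Cyb5b beside them. The adjusted p-values lay close to the threshold: 47 genes were under 0.06, 36 of them higher, and 564 were under 0.10, with 395 higher and 169 lower. At an unadjusted p under 0.05 there were 3273 genes (19.6%). The 4 libraries of one group lay wholly above or below the 4 of the other at 1738 genes (10.4%), of which 934 (5.6%) were higher and 804 (4.82%) lower under SHU9119.

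Scd2 encodes a stearoyl-CoA desaturase, which puts the double bond into oleate and palmitoleate. It stood at 339, 293, 242 and 216 CPM in Sham_Veh1 to Sham_Veh4 and at 1268, 1258, 622 and 1172 CPM in Sham_SHU1 to Sham_SHU4. The groups did not overlap, and Sham_SHU3 lay lowest of its group. The log2 fold change was 1.99 ± 0.266 (SE), with an edgeR adjusted p of 0.0271. Mogat2, which joins a fatty acid to monoacylglycerol and is best known from the gut, went from 1.56, 1.75, 2.02 and 1.65 CPM to 16.0, 20.4, 6.00 and 12.8 CPM. This change of 2.98 ± 0.395 on the log2 scale was the steepest among the 19 genes, from a low level in all 4 vehicle libraries.

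Insig1 holds the SREBP-SCAP complex in the endoplasmic reticulum and is itself raised when SREBP is active. Its CPM were 200.1, 162, 205 and 192 under vehicle and 667, 846, 360.0 and 838 under SHU9119 in library order. Vehicle libraries were tight here, and even Sham_SHU3 lay well above them. Lss, the cyclase that folds squalene epoxide into lanosterol, gave 29.9, 28.1, 35.5 and 26.5 CPM against 115, 147, 52.0 and 83.9 CPM. Dhcr7, which makes cholesterol from 7-dehydrocholesterol, gave 10.3, 11.8, 12.5 and 12.1 against 32.4, 41.2, 22.1 and 29.4 CPM. All 3 genes kept the groups apart, with log2 fold changes of 1.84 ± 0.296, 1.73 ± 0.291 and 1.42 ± 0.2 and edgeR adjusted p-values of 0.0415, 0.0422 and 0.0319. Cyb5b, an outer mitochondrial membrane cytochrome b5, rose from 398, 384, 419 and 328 to 939.7, 858, 543 and 862 CPM (1.07 ± 0.185). In the deposited build, mm10, Dhcr7 lies on chromosome 7 from 143823167 to 143848410, Lss on chromosome 10 from 76531565 to 76557139 and Cyb5b on chromosome 8 from 107150661 to 107187470.

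Promoters of sterol genes are shown because 13 of the 21 cholesterol synthesis genes described below kept the groups apart, and because SREBP proteins are known to act with the CCAAT-binding factor NF-Y. The stretch runs from 250 bases before to the last base before a RefSeq transcript start on the plus strand of GRCm38.p6, the assembly of mm10. It covers chr5:28071162-28071411 for Insig1, chr10:76531355-76531604 for Lss, chr13:119690101-119690350 for Hmgcs1, the synthase that makes HMG-CoA, and chr13:8885356-8885605 for Idi1, the isopentenyl diphosphate isomerase. Capitals mark matches on either strand to the CCAAT box, the E-box CACGTG, or the sterol regulatory element core TCACNCCAC.
Insig1: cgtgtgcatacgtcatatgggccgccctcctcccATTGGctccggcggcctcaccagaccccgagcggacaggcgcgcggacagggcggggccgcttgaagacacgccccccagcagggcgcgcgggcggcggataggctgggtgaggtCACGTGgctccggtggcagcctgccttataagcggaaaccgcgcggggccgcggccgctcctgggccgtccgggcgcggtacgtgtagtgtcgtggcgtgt
Lss: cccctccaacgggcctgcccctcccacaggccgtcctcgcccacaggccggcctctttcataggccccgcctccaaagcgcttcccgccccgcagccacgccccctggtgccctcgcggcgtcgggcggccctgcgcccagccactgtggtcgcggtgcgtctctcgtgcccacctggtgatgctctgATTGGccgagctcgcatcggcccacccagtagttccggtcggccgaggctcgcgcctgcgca
Hmgcs1: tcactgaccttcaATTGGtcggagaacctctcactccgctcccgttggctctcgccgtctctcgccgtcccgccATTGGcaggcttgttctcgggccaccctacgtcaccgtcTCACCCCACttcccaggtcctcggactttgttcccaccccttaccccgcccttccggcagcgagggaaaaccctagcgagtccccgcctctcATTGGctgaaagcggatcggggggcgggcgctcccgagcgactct
Idi1: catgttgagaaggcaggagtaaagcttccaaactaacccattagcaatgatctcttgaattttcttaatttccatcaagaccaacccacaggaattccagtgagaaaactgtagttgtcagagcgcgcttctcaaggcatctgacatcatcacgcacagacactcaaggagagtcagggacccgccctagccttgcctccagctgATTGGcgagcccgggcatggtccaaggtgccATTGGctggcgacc

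The Insig1 stretch held an E-box that begins 101 bases before the start and a CCAAT match 216 bases before it. Lss had 1 CCAAT match, 62 bases before the start, and Idi1 had 2, at 45 and 14 bases. Hmgcs1 had 3 CCAAT matches and the 1 TCACNCCAC match of the set, 137 bases before its start. Among 16 cholesterol synthesis genes with a promoter in the table, 15 (93.8%) held CCAAT in at least 1 start-site window, against 37.5% of 27025 genes. Counted by window the shares were 78.9% of 19 windows against 33.8%. For fatty acid synthesis 12 of 19 genes did so (63.2%), and of the 16 genes that rose 7 of 12 (58.3%). E-boxes, counted in the same way by gene, were in 4 of those 12 (33.3%), at Dhcr7, Fmr1, Insig1 and Golim4, against 6.86% of all genes. In a count by gene, genes with more windows have more chances to match. The TCACNCCAC core was in 0 of those 12 and in 1.22% of all genes. These are letter matches, no measure of binding.

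**Figure D2:**
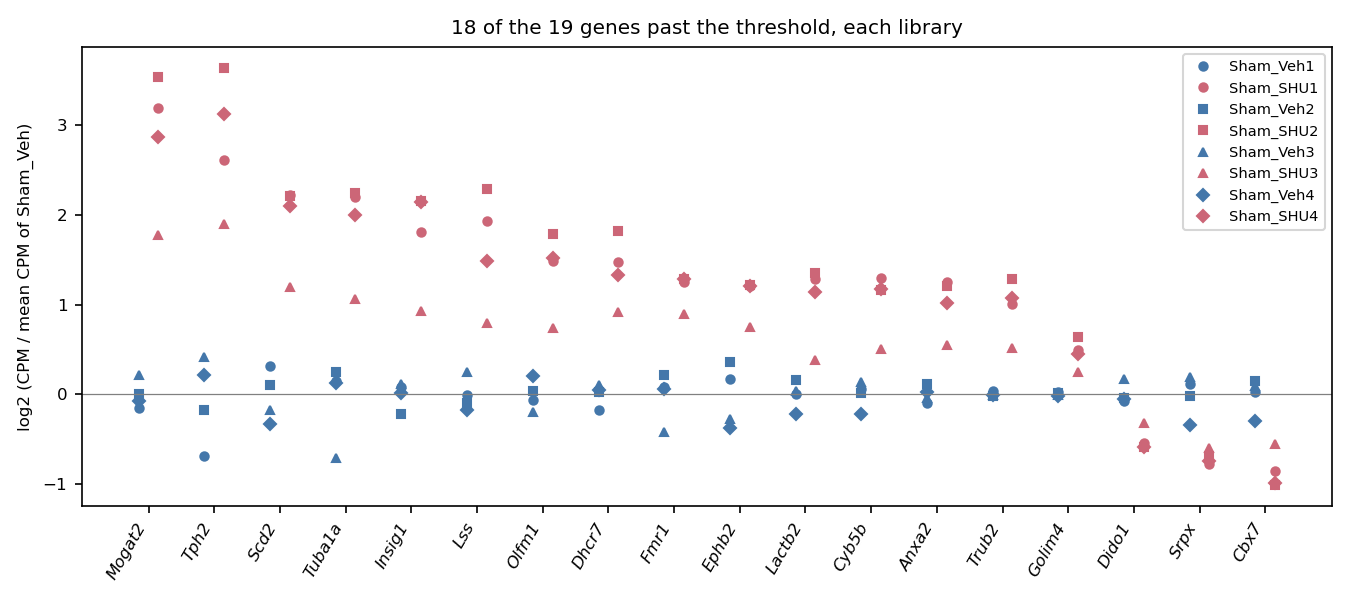
Log2 ratio of each library's CPM to the mean of the 4 Sham_Veh libraries for 18 of the 19 genes past the threshold, ordered by fold change, blue for vehicle and red for SHU9119. Groups are apart at each gene shown, and the red triangle, Sham_SHU3, lies nearest to vehicle at all 18.

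The other genes that rose have varied roles. Tuba1a, an alpha-tubulin of the microtubule wall, went from 204, 219.7, 112 and 202 to 849, 874, 386 and 739 CPM (1.95 ± 0.321 on the log2 scale). Fmr1, which encodes the translation regulator FMRP on the X chromosome, gave 199.5, 218, 140.1 and 196 against 447, 459, 349 and 459 CPM (1.18 ± 0.173). Anxa2, a calcium-dependent membrane-binding annexin, gave 501, 584, 524 and 547 against 1286, 1244, 787 and 1092 CPM (1.03 ± 0.156). In each of these 3 genes the lowest SHU9119 library still exceeded the highest vehicle library.

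Olfm1, a secreted olfactomedin protein gene, had 52.2, 55.8, 47.4 and 62.6 CPM under vehicle and 152, 189, 90.6 and 156 under SHU9119 (1.43 ± 0.22). Ephb2, a receptor tyrosine kinase gene for ephrin-B ligands, had 10.2, 11.7, 7.52 and 6.97 and 21.0, 21.2, 15.3 and 21.0 CPM (1.11 ± 0.193). At both, Sham_SHU3 lay between the vehicle libraries and the rest of its group. Trub2, a pseudouridine synthase of mitochondrial RNA, had nearly equal vehicle libraries, 25.8, 25.0, 25.1 and 25.2 CPM, against 50.8, 61.6, 36.3 and 53.2 CPM (1.00 ± 0.159).

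Lactb2, a mitochondrial endoribonuclease gene, gave 44.0, 49.0, 45.0 and 37.5 and 106, 112, 56.9 and 96.6 CPM (1.08 ± 0.188). Golim4, a Golgi membrane protein gene, rose by the smallest step, from 65.7, 65.3, 64.0 and 63.7 to 91.0, 101, 76.7 and 87.8 CPM (0.46 ± 0.0731). Tph2, the neuronal enzyme of serotonin synthesis, stayed rare: 0.153, 0.218, 0.330 and 0.287 CPM under vehicle and 1.52, 3.09, 0.920 and 2.17 CPM under SHU9119. At such levels a vehicle library holds a handful of counts, and the log2 difference of 2.94 ± 0.45 rests on few reads. EdgeR adjusted p-values over these 9 genes ran from 0.0368 for Fmr1 to 0.0464 for Ephb2 and Lactb2.

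Cbx7, a Polycomb protein that reads methylated histone H3, went down from 59.1, 64.6, 62.2 and 47.5 to 32.3, 28.9, 39.6 and 29.2 CPM. It fell by 0.84 on the log2 scale (SE 0.143). Dido1, a chromatin reader linked to development and apoptosis, went from 159, 163, 189 and 162 to 115, 112, 135 and 112 CPM and fell by 0.51 (SE 0.0831). Srpx, a sushi-repeat extracellular protein gene, went from 33.6, 30.8, 35.7 and 24.6 to 18.1, 19.2, 20.6 and 18.5 CPM and fell by 0.71 (SE 0.118). The edgeR adjusted p-values of the 3 genes were 0.0422, 0.0415 and 0.0421, and none of them overlapped between groups.

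Genes next in rank among those lower under SHU9119 missed the threshold. Cadps2, of vesicle release, had means of 15.4 ± 2.73 and 7.97 ± 0.891 CPM (SD, n = 4) and a log2 difference of −0.95 ± 0.183 (edgeR adjusted p = 0.0597), and the lectin gene Clec2d had −0.61 (adjusted p = 0.0598). Rnpc3, of the minor spliceosome, had −0.46, Pabpn1, the nuclear poly(A)-binding protein, −0.46 and Rsrp1 −0.47, with edgeR adjusted p-values of 0.0597, 0.0597 and 0.0656. Map11, a microtubule-associated protein gene, had −0.45 (adjusted p = 0.0597). At all 6 of these genes the groups did not overlap.

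Sham_SHU3 was the intermediate library. On a scale with 0 at the mean of vehicle and 1 at the mean of SHU9119 (log2 of CPM plus 0.5), its median over the 19 genes was 0.58, against 1.09, 1.23 and 1.09 for Sham_SHU1, Sham_SHU2 and Sham_SHU4. It lay nearest to vehicle at 19 of 19 genes. Over all 1738 genes without overlap it did so at 1118 (64.33%), while the other libraries did so at 252, 165 and 203. Without Sham_SHU3, 982 genes passed in place of 19, all 19 among them. Sums of epididymis, testis and ciliary markers were 1734, 1700.2 and 191 CPM in Sham_SHU3, and 3457, 107 and 37.9 CPM in Sham_SHU4. The part of such transcripts in the position of any library was not tested.

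Fatty acid synthesis genes lay higher under SHU9119, but mostly with overlap or above the threshold. Of 23 members tested, 1 rose (Scd2) and 0 fell, 20 had a positive log2 difference and 7 did not overlap, with a median of 0.94, where the median of all genes was −0.06. Over all genes, 7207 of 16682 had a positive difference, and 5.6% were higher and 4.82% lower without overlap. Those shares belong beside the counts of each list below. The lists were chosen with earlier results of these data known, and a count above those shares is a description only. Fasn, the multienzyme that builds palmitate, gave 3281, 3018, 9022 and 4176 CPM in Sham_Veh1 to Sham_Veh4 and 21552, 24439.9, 9092 and 14662 in Sham_SHU1 to Sham_SHU4. The highest vehicle library, Sham_Veh3, came close to the lowest SHU9119 library, Sham_SHU3, without overlap. The log2 difference was 1.84 ± 0.501 (edgeR adjusted p = 0.0962).

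Acly, which cleaves citrate into cytosolic acetyl-CoA, gave 480.4, 391, 1055 and 491 against 3903, 4851, 1285 and 2536 CPM (2.38 ± 0.53, adjusted p = 0.0687). Acss2, which makes the same product from acetate, gave 129.9, 97.1, 332 and 156 against 961, 1187, 326 and 716 CPM (2.16 ± 0.546, adjusted p = 0.0841). Acaca, the carboxylase that commits acetyl-CoA to malonyl-CoA, gave 529, 502, 1579.6 and 665 against 2471, 3129.7, 1201 and 1738 CPM (1.38 ± 0.473, adjusted p = 0.146). In Acss2 and Acaca the groups overlapped, since Sham_Veh3 exceeded Sham_SHU3. Scd1, the main fat cell desaturase, gave 21341, 18507, 35591 and 19068 and 63650.2, 86659, 36399 and 53474 CPM (1.35 ± 0.389, adjusted p = 0.103), with Sham_Veh3 and Sham_SHU3 all but equal. Fads3, of the fatty acid desaturase cluster, gave 253, 305, 295 and 311 and 514, 818, 406 and 489.5 CPM without overlap (0.94 ± 0.224, adjusted p = 0.0716). Its neighbours Fads1 (−0.15) and Fads2 (−0.37) had values below 0. Elovl6, which elongates palmitate to stearate, had means of 103 ± 79.7 and 592 ± 330.2 CPM (SD, n = 4) and a log2 difference of 2.52 (adjusted p = 0.0879). Reads of Scd1 and Scd2 could have been split between these close copies.

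**Figure D3:**
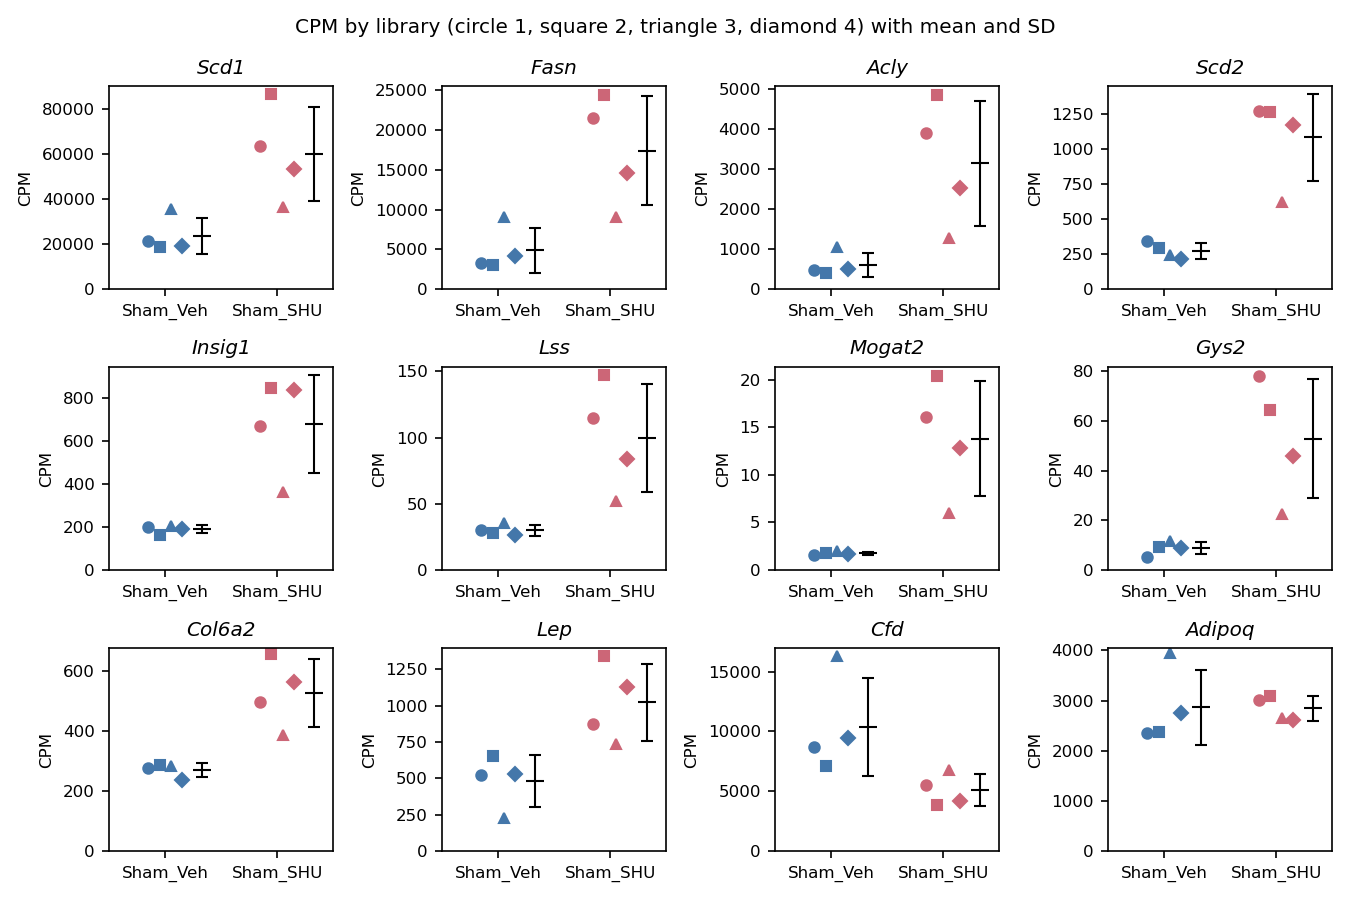
CPM of 12 genes in each Sham_Veh (blue) and Sham_SHU (red) library, with the mean and SD of each group in black and axes that start at 0. At Scd1, Fasn and Acly the blue triangle, Sham_Veh3, stands above the other vehicle libraries, whereas at Scd2, Insig1 and Lss the vehicle libraries lie together.

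The vehicle libraries also had an order. Sham_Veh3 was the highest of the 4 for 14 of 23 fatty acid synthesis genes, 6 of 7 pentose phosphate genes and 18 of 21 fatty acid oxidation genes, against 34.7% of all genes. Sham_SHU3 was the lowest SHU9119 library for 18, 7 and 20 of the same genes, against 30.8% of all. The order was not confined to these lists. Sham_Veh3 was highest for 9 of 10 fat cell markers, 15 of 19 lipolysis genes and 10 of 12 endothelial markers, but for 2 of 14 genes known to follow fat mass. Sham_SHU3 was lowest for 7, 12, 2 and 9 of the same genes. The fat cell sum was 45104 CPM in Sham_Veh3, the highest vehicle value, and 27352 CPM in Sham_SHU3, near the 27517 CPM of Sham_SHU4. In Sham_Veh3 the ciliary sum was 11.4 CPM, the lowest vehicle value, and in Sham_SHU3 191 CPM, the highest SHU9119 value. Whether fat cell or ciliary transcripts had a part in the order was not tested.

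The pentose phosphate pathway supplies NADPH to lipogenesis. Of 7 members tested 0 passed, all 7 had positive differences (7207 of 16682 over all genes), and the median was 0.69. Pgd, the second of its NADPH-forming dehydrogenases, gave 338, 327, 396 and 296 against 916, 1109, 469.7 and 686 CPM (1.23 ± 0.269, edgeR adjusted p = 0.0687) with no overlap. Rpe, the ribulose phosphate epimerase, did not overlap either (0.69 ± 0.172, adjusted p = 0.0818). G6pdx, which opens the pathway (1.04, adjusted p = 0.0992), and Tkt, the transketolase (1.42, adjusted p = 0.119), overlapped through Sham_Veh3 and Sham_SHU3.

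Cholesterol synthesis had the highest share of members that kept the groups apart among the 22 pathway lists. All 21 members were tested: 2 rose (Lss and Dhcr7), 0 fell, 21 had positive differences, and 13 had groups that did not overlap, all higher, where 5.6% of all genes did. The median log2 difference was 0.90. Upstream, Hmgcs1 gave 211, 314, 202 and 207 against 473, 397, 339.6 and 443 CPM (0.82 ± 0.179, edgeR adjusted p = 0.0687).

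Further along the mevalonate branch, Mvd, the decarboxylase, gave 8.74, 7.90, 8.76 and 7.04 against 20.6, 33.1, 12.1 and 22.3 CPM (1.44 ± 0.316, adjusted p = 0.0687). Idi1 gave 64.2, 58.5, 54.6 and 68.8 against 135, 147, 80.0 and 119 CPM (0.97 ± 0.176, adjusted p = 0.0597). Fdps, the farnesyl diphosphate synthase, gave 30.1, 34.0, 53.1 and 38.1 against 123, 149, 75.7 and 124 CPM (1.60 ± 0.44, adjusted p = 0.097). Each of these 3 genes was higher in all 4 SHU9119 libraries than in any vehicle library. After squalene, Sc5d, the sterol C5 desaturase, gave 93.6, 94.6, 105 and 106 against 259.8, 259, 148 and 250.2 CPM (1.20 ± 0.255, adjusted p = 0.0687). Nsdhl (1.09) and Hsd17b7 (1.09), of sterol demethylation, did not overlap either. Ggps1, which diverts farnesyl diphosphate to geranylgeranyl, was at 0.10, and Fdft1, the squalene synthase, at 0.20 (edgeR adjusted p = 0.366 and 0.607).

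Sterol sensing and uptake genes differed less. Of 18 members tested 1 rose, Insig1, 0 fell, and Insig1 was also the only one without overlap. The median was 0.19. Srebf1, which encodes the SREBP-1 factors, gave 324, 355, 592 and 356 against 477, 676, 359 and 419 CPM (0.25 ± 0.243, edgeR adjusted p = 0.582) with wide overlap. Srebf2 differed by −0.05 (adjusted p = 0.893). Insig2 (0.22) and the sterol exporter gene Abcg1 (0.33) did not pass either (adjusted p = 0.284 and 0.208).

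Mlxipl, which encodes the glucose-responsive factor ChREBP, gave 116, 121, 165 and 131 against 162, 224, 119.7 and 148 CPM (0.29 ± 0.204, edgeR adjusted p = 0.428). Its partner Mlx differed by 0.50 ± 0.137 (adjusted p = 0.097). Of 11 lipogenic transcription genes 0 passed and 0 lacked overlap, and the median was −0.03. The 11 fat cell transcription factors had 0 past the threshold and 0 without overlap too (median 0.17). Pparg, the main fat cell regulator, was at 282 ± 41.8 and 318 ± 58.3 CPM (SD, n = 4; log2 difference 0.17 ± 0.235), and Cebpa was at 632 ± 115 and 863 ± 149 (0.45 ± 0.256).

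Glyceride assembly had 14 members tested. Only Mogat2 rose, 0 fell, 3 were higher without overlap (5.6% of all genes), and the median was 0.18. Dgat2, which adds the last fatty acid to triglyceride, gave 1251, 1483, 1773 and 1563 against 3697, 3848, 2114 and 3196 CPM (1.08 ± 0.262, edgeR adjusted p = 0.0747) without overlap. Agpat2, an acyltransferase whose loss causes lipodystrophy, gave 329, 323, 554 and 390.1 against 1094, 1195, 517 and 951 CPM (1.23 ± 0.316, adjusted p = 0.0849). Gpd1, which makes glycerol 3-phosphate, gave 468, 542, 873 and 613 against 1625, 2003, 786 and 1462 CPM (1.24 ± 0.344, adjusted p = 0.0982). At both, Sham_Veh3 exceeded Sham_SHU3 and the other libraries were apart. The companion monoacylglycerol acyltransferase Mogat1 differed by −0.02 (adjusted p = 0.96).

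Fatty acid uptake had 0 of 14 members past the threshold, with 12 positive, 3 higher without overlap (5.6% of all genes) and a median of 0.37. Lpl, lipoprotein lipase, gave 10154, 10737, 14352 and 11966 against 22228, 17798, 12881 and 18581 CPM (0.60 ± 0.23, adjusted p = 0.187 by edgeR). Fabp5, a fatty acid carrier, gave 113, 108, 175 and 109 against 439, 519.5, 158 and 339 CPM (1.53 ± 0.372, adjusted p = 0.0767). Vldlr, the VLDL receptor, gave 83.7, 88.2, 83.1 and 77.2 against 124, 128, 92.8 and 126 CPM with no overlap (0.50 ± 0.117, adjusted p = 0.0708). Cd36, the fatty acid translocase, did not overlap either (0.41 ± 0.185, adjusted p = 0.248).

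Lipolysis and droplet genes had 0 of 19 members past the threshold (median 0.15, 1 higher without overlap, near the 5.6% of all genes). That 1 gene was Plin3, a droplet coat protein (0.29 ± 0.0711, edgeR adjusted p = 0.0804). Plin2, another coat protein, gave 169.7, 191, 300.1 and 219 against 538, 625, 282 and 399.9 CPM (1.07 ± 0.289, adjusted p = 0.0935). The monoacylglycerol lipase Mgll (0.64 ± 0.263) and the antilipolytic adenosine receptor gene Adora1 (0.94 ± 0.307) overlapped. Pnpla2, adipose triglyceride lipase, differed by 0.16 and Lipe, hormone-sensitive lipase, by 0.26 (adjusted p = 0.747 and 0.584). Adrb3, the beta-3 adrenergic receptor of fat, differed by −0.22 (adjusted p = 0.645). Fatty acid oxidation had 0 of 21 past the threshold and 0 without overlap, with 19 positive and a median of 0.22; Hadhb, of the trifunctional protein, was at 0.42 ± 0.199 and Decr1 at 0.43 ± 0.211.

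Glucose uptake and glycolysis had 0 of 23 members past the threshold, 18 positive and a median of 0.57. Without overlap 5 were higher and 1 lower, where 5.6% and 4.82% of all genes were. Tpi1, the triose phosphate isomerase, gave 322, 338, 342 and 310.0 against 578, 654, 384 and 519.8 CPM (0.70 ± 0.15, edgeR adjusted p = 0.0687). Pkm, pyruvate kinase, gave 387, 411, 429 and 348 against 738, 985, 470.1 and 610.1 CPM (0.83 ± 0.196, adjusted p = 0.0713). Pfkp, a phosphofructokinase, gave 0.44 ± 0.114 and Pgam1, the phosphoglycerate mutase, 0.57 ± 0.139. Mpc1, of the mitochondrial pyruvate carrier, had means of 197 ± 45.0 and 436 ± 166 CPM (SD, n = 4; 1.14 ± 0.31, adjusted p = 0.0952). Slc2a4, the insulin-responsive glucose transporter, was at 0.51 ± 0.226 and Slc2a1, the basal one, at −0.39 ± 0.247 (adjusted p = 0.235 and 0.384). The 1 lower gene was Eno3, the muscle enolase (−0.57 ± 0.162).

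Glycogen genes had 0 of 16 past the threshold, 12 positive, 3 higher without overlap (5.6% of all genes) and a median of 0.38. Gys2, the glycogen synthase best known from liver, gave 5.42, 9.46, 11.6 and 8.83 against 78.0, 64.4, 22.7 and 45.8 CPM, apart in all libraries (2.58 ± 0.494, edgeR adjusted p = 0.0597). Ppp1r3b, which brings protein phosphatase 1 to glycogen, gave 6.53, 8.19, 9.99 and 11.9 against 30.6, 66.3, 16.6 and 45.1 CPM (2.11 ± 0.463, adjusted p = 0.0687). Ppp1r3d, of the same family, gave 13.8, 14.1, 12.6 and 14.3 against 25.8, 26.2, 18.1 and 26.4 CPM (0.82 ± 0.173, adjusted p = 0.0677). Gys1, the widely expressed synthase, differed by 0.10 ± 0.194 (adjusted p = 0.769).

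**Figure D4:**
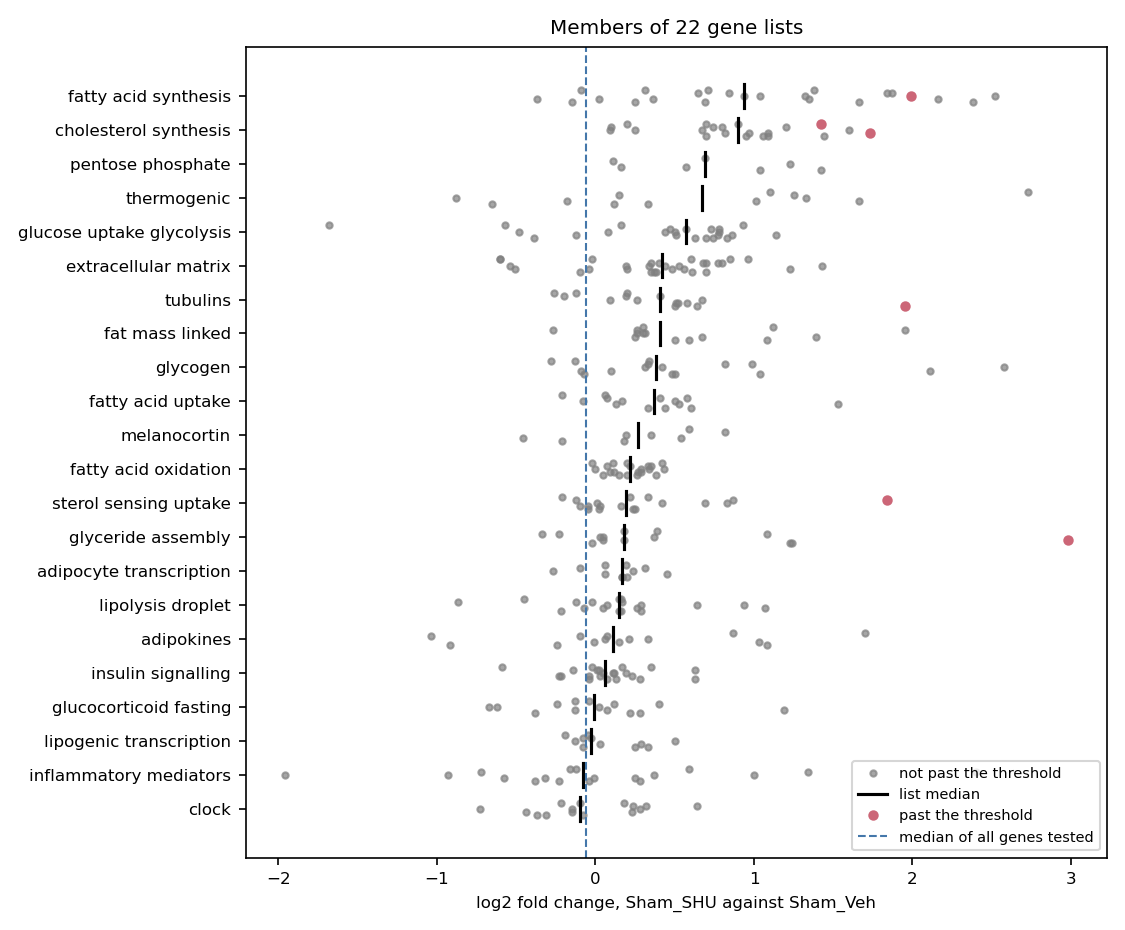
Log2 fold change of Sham_SHU against Sham_Veh for each tested member of 22 gene lists, red for members past the threshold, with the list median as a black bar and the median of all genes (−0.06) as a dashed line. Fatty acid and cholesterol synthesis have the medians furthest to the right, 0.94 and 0.90.

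Among 14 tested adipokine genes 0 passed and the median was 0.11. Without overlap 1 was higher and 3 lower, where 5.6% and 4.82% of all genes were. Lep, which encodes leptin, gave 522, 653, 225 and 529 against 876, 1340.5, 739.6 and 1131 CPM (1.08 ± 0.372, edgeR adjusted p = 0.147). Its low vehicle value was in Sham_Veh3, the library with the highest Adipoq (2357, 2382, 3957 and 2756 against 3006, 3101, 2661 and 2613 CPM; −0.01 ± 0.247, adjusted p = 0.984). Lower without overlap were Cfd, the complement factor adipsin, Agt and Nampt. Cfd gave 8694, 7087, 16340.4 and 9429 against 5492, 3824, 6763 and 4196 CPM (−1.04 ± 0.314, adjusted p = 0.114). Agt, angiotensinogen, gave 333, 326, 385 and 256 against 148, 146, 253 and 139.5 CPM (−0.92 ± 0.215, adjusted p = 0.0713), with Sham_SHU3 nearest to vehicle. Apln, the peptide apelin, differed by 1.03 ± 0.33 (adjusted p = 0.131).

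Genes whose level is known to follow fat mass had 0 of 14 past the threshold, 13 positive, 8 higher without overlap (5.6% of all genes), and a median of 0.41. Lep is also a member of that list. Mest, an imprinted gene that marks expanding fat, gave 62.6, 75.6, 24.0 and 45.3 against 104, 222, 114 and 104 CPM (1.39 ± 0.387, edgeR adjusted p = 0.0982). Npr3, the natriuretic peptide clearance receptor, gave 536, 703, 369 and 615 against 1363, 1359, 950.2 and 1158 CPM (1.12 ± 0.292, adjusted p = 0.0868). Bmp3 gave 5.42, 11.2, 8.59 and 12.1 against 27.5, 63.3, 21.8 and 31.3 CPM (1.95 ± 0.432, adjusted p = 0.0687). At Lep, Mest and Npr3 the lowest library was Sham_Veh3, unlike at the lipogenic genes above.

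Extracellular matrix genes had 0 of 30 past the threshold, 23 positive (7207 of 16682 over all genes) and a median of 0.42. Without overlap 13 were higher and 1 lower, where 5.6% and 4.82% of all genes were. Collagen VI, the microfibril collagen around fat cells, gave 277, 287, 282 and 238 against 498, 656, 386 and 563 CPM for Col6a2 (0.96 ± 0.175, edgeR adjusted p = 0.0597). Col6a1 gave 354, 377, 330.3 and 292 against 489, 629, 438 and 607 CPM (0.68 ± 0.129, adjusted p = 0.0597) and Col6a3 0.70 ± 0.166 (adjusted p = 0.0713). Col5a3 (1.43 ± 0.306) and Col15a1 (1.23 ± 0.265), of fibril surfaces and basement membrane zones, did not overlap either. The fibrillar Col1a2 was at −0.04 and Lamb1, a laminin chain, at −0.02. The 1 lower gene was Dcn, the small proteoglycan decorin, with means of 1676 ± 156 and 1105 ± 235 CPM (SD, n = 4; −0.60 ± 0.165, adjusted p = 0.097). Mmp2 (−0.51), Mmp14 (−0.54) and Timp2 (−0.60), which degrade matrix or inhibit its proteases, were below 0 with adjusted p-values of 0.112, 0.131 and 0.122.

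Of 15 tubulin genes tested 1 rose, Tuba1a, 0 fell, 5 were higher without overlap (5.6% of all genes), and the median was 0.41. Tuba1b gave 259.9, 274, 275 and 275 against 470.5, 467, 327 and 356 CPM (0.58 ± 0.157, edgeR adjusted p = 0.0935). Tubb5 gave 198, 192, 216 and 196 against 317, 309.9, 223 and 283 CPM (0.50 ± 0.13, adjusted p = 0.0877), and Tubg1, of the nucleating ring, overlapped (0.67 ± 0.194). Alpha-tubulin genes are close copies, and the counting could have split their reads.

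Insulin signalling had 0 of 22 past the threshold, 4 higher without overlap (5.6% of all genes), and a median of 0.06. Gsk3b, a glycogen synthase kinase, was at 0.23 ± 0.0722, Rptor, of mTOR complex 1, at 0.28 ± 0.0977, and Pik3r1, the regulatory subunit of PI3-kinase, at −0.59 ± 0.244 (edgeR adjusted p = 0.125, 0.148 and 0.213). Thermogenic genes had 0 of 12 past the threshold, with 2 of them without overlap and a median of 0.67. Some members were rare and others were not. Kcnk3 had means of 18.5 and 44.0 CPM in Sham_Veh and Sham_SHU (1.25 ± 0.478, edgeR adjusted p = 0.186). Ppargc1a had means of 15.5 and 9.91 CPM (−0.65 ± 0.346, adjusted p = 0.306). Ucp1, the uncoupling protein of brown fat, was at 0.0763, 0.0364, 0.0413 and 0.0718 CPM under vehicle and 0, 0.0412, 0 and 0 under SHU9119 and did not pass the low-count filter. Dio2 gave 0.649, 0.655, 0.578 and 1.29 against 2.70, 1.65, 1.03 and 2.62 CPM and Otop1, a proton channel gene, 0.229, 0.182, 0.289 and 0.395 against 2.51, 2.35, 0.589 and 1.92 CPM (2.73 ± 0.636, adjusted p = 0.0713). Ucp3, a mitochondrial carrier, gave 13.0, 18.9, 23.2 and 19.8 against 31.8, 52.9, 25.6 and 40.4 CPM (1.01 ± 0.345, adjusted p = 0.145).

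Melanocortin genes of the fat itself had 0 of 8 tested members past the threshold and a median of 0.27. Mrap, the accessory protein that carries the ACTH receptor to the cell surface, gave 115, 104, 222 and 132 against 266, 381, 155 and 213 CPM (0.82 ± 0.335, edgeR adjusted p = 0.208). Mc2r, which encodes that receptor, was the 1 member without overlap (17.9, 18.7, 20.6 and 23.4 against 27.9, 34.7, 24.1 and 30.2 CPM; 0.54 ± 0.232, adjusted p = 0.23). Atrn, the attractin gene, was at 0.35 ± 0.128. Circadian clock genes, whose level follows the hour of sampling, had 0 of 15 past the threshold and a median of −0.10, with Cry2 (0.28 ± 0.108) the 1 gene without overlap and Clock at 0.23 ± 0.0858. Glucocorticoid and fasting genes had 0 of 14 past the threshold and a median of −0.01. In that list Cdkn1a, the cell cycle inhibitor p21, gave 17.6, 17.6, 16.1 and 15.1 against 39.2, 41.7, 32.2 and 38.2 CPM (1.19 ± 0.318, adjusted p = 0.09). Fkbp5, a steroid receptor chaperone, gave 208, 174, 136 and 107 against 54.5, 110.2, 126 and 115 CPM (−0.62 ± 0.349).

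Inflammatory mediators had 0 of 18 past the threshold and a median of −0.08. The chemokine gene Ccl2 gave 4.66, 4.62, 3.76 and 10.4 against 13.5, 21.0, 10.6 and 14.4 CPM without overlap (1.34 ± 0.471, edgeR adjusted p = 0.156), while Il18 (−0.93 ± 0.371) and Vcam1 (−0.58 ± 0.248) were below 0. Cell type lists had 0 members past the threshold. Macrophage markers without Lpl, which fat cells also make, summed to 1264 to 1515 CPM under vehicle and 1183 to 1403 under SHU9119. Endothelial sums were 1231 to 1730.2 and 1459 to 1867 CPM, and stromal progenitor sums 1077 to 1189 and 1159.5 to 1421. Mesothelial markers summed to 133 to 381 CPM and 42.9 to 213 CPM. Their 11 of 11 members had values below 0, where 7207 of 16682 genes tested were positive. These are not independent signs, since Sham_SHU1 was the lowest SHU9119 library at all 11. Sham_SHU3 (213 CPM) and Sham_SHU4 (199 CPM) lay within the vehicle range. Mast cell and granulocyte markers summed to 62.6 to 126 and 50.7 to 80.4 CPM. Nerve and Schwann cell markers had 3 lower members without overlap (Cdh19 among them), lymphocyte markers 2 (Cd4 and Lck), macrophage markers 2 (Mpeg1 and Gpnmb) and skeletal muscle markers 2 (Tnnt3 and Actn3), where 4.82% of all genes were lower without overlap. Higher without overlap were 2 stromal progenitor markers (Dpt and Fbn1), 2 mural markers (Rgs5 and Cspg4) and the macrophage marker Lgals3, where 5.6% of all genes were. Fat cell markers had 1 of each, Lep higher and Cfd lower. The part of these cell types in the gene differences was not tested.

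A test of the difference between surgeries asked whether SHU9119 acted otherwise after sDVX. By the edgeR interaction test 0 of 16682 genes passed (lowest adjusted p = 0.612), 794 (4.76%) had an unadjusted p under 0.05, and 8 genes passed with DESeq2 and 13 with limma-voom. After sDVX, 1 gene (0.00599%) passed for SHU9119 against vehicle, and it was Emp1, an epithelial membrane protein gene named here after its values were seen and not among the 19. The 19 had a median size of 1.11 on the log2 scale after sham surgery and 0.51 after sDVX, 18 kept their sign, and all 19 were smaller after sDVX. Since the sham libraries chose these genes, a smaller value elsewhere is a description and no evidence of a difference. Scd2 stood at 540.4, 487, 377 and 762 CPM in VX_Veh1 to VX_Veh4 and 542, 559, 775 and 827 in VX_SHU1 to VX_SHU4, a log2 difference of 0.32 ± 0.256 beside 1.99 ± 0.266 in sham mice. The interaction at Scd2 was −1.67 (unadjusted p = 0.000452, edgeR adjusted p = 0.957).

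Srpx was the 1 gene of the 19 whose sign differed, with 27.3, 24.9, 25.7 and 22.4 CPM in VX_Veh and 33.9, 28.3, 26.0 and 34.1 in VX_SHU (0.29 ± 0.117 against −0.71 ± 0.118). Its interaction of 0.99 had an adjusted p of 0.612. Insig1 differed by 0.64 ± 0.288 after sDVX and 1.84 ± 0.296 after sham surgery, Lss by 0.51 ± 0.283 and 1.73 ± 0.291, and Mogat2 by 1.26 ± 0.373 and 2.98 ± 0.395. Tph2 (2.46 ± 0.461 and 2.94 ± 0.45) and Fmr1 (0.79 ± 0.172 and 1.18 ± 0.173) were closer between surgeries. Mest, outside the 19, was at 1.70 ± 0.392 after sDVX and 1.39 ± 0.387 after sham surgery.

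**Figure D5:**
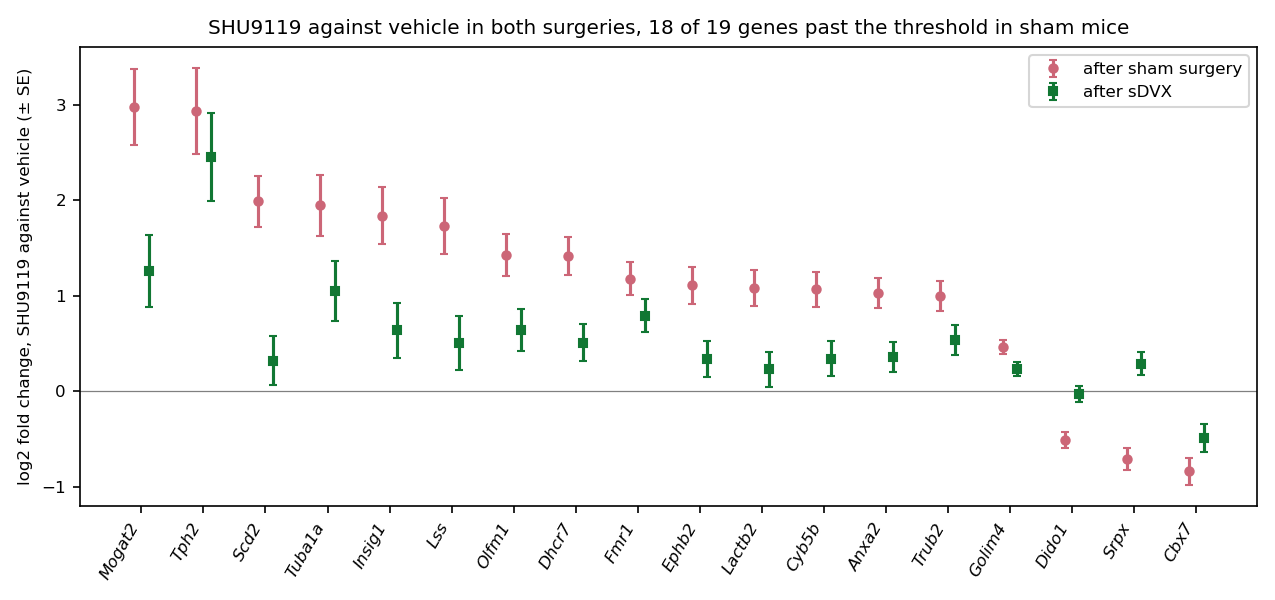
Log2 fold change of SHU9119 against vehicle (± SE) after sham surgery (red circles) and after sDVX (green squares) for 18 of the 19 genes past the threshold in sham mice. The green values lie nearer to 0 at all 18 genes, and at Srpx on the other side of 0.

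The count of 19 depended on single libraries and on the tool. All 19 genes kept their direction in the alternative fits run. Since these genes were chosen for groups that lay apart, leaving out libraries could hardly reverse a sign, and the kept direction is no evidence of stability. By edgeR, 0 genes passed when any 1 of Sham_Veh1 to Sham_Veh3 was removed, or any SHU9119 library of the sham group except Sham_SHU3, or VX_Veh2 or VX_SHU1, with 2043 or more still at an unadjusted p under 0.05. The count was 982 without Sham_SHU3, 527 without VX_Veh1 and 178 without VX_SHU3. Without the 4 sham libraries that held over 500 CPM of epididymis or testis markers (replicates 3 and 4 of both groups), edgeR called 0 genes (4942 at an unadjusted p under 0.05), and the median size of the 19 was 1.24. The vagotomy libraries VX_Veh4 and VX_SHU4, with epididymis sums of 10548.5 and 11277 CPM, stayed in that fit and in the main fit. The fit on the 8 sham libraries alone called 1 gene, Cdkn1a, while DESeq2 called 1178 (18 of the 19) and limma-voom 3874 (all 19).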

How the data were processed

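PolyA RNA of frozen gonadal fat was sequenced, and the authors deposited 1 table of raw read counts for 24454 genes in 16 libraries. Per the submitters' processing notes, bcl2fastq, TopHat and edgeR were used with the mouse build mm10. For their versions, and for the counting tool, annotation and strandedness, the entry is: not given in the sources used here. Libraries were grouped by their labels. Gene IDs were matched to RefSeq symbols (24374 matched). The 21661 genes with a count were filtered with filterByExpr, which kept 16682. Counts of all 16 libraries were scaled by TMM and fitted in edgeR 4.0.16 (R 4.3.3) with 4 group means, robust quasi-likelihood and 12 residual degrees of freedom. The biological coefficient of variation was 50% in common and 22.8% at the median gene, which sets the precision. All p-values were adjusted by Benjamini-Hochberg over all genes tested, and the scripts were tested on simulated data. There the edgeR test recovered 14% of 1.5-fold, 52% of 2-fold, 56% of 3-fold and 70% of 4-fold changes, and called 0.0367% of unchanged genes. Many real changes can therefore miss the threshold. CPM use TMM-scaled totals. Each SE printed with an edgeR log2 fold change is that change's size divided by the square root of its quasi-likelihood F. Library pairs of a sham group differed beyond counting noise (chi-square per degree of freedom 20.19 to 125.75), so none was a copy.

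The members and gene lists were chosen with earlier results of these data known. Named genes were all past the threshold, the 10 smallest p-values a direction with a mean of at least 5 CPM over the sham libraries, the 4 smallest p-values in each of 22 pathway lists, and a set of known fat genes. Not all of these are printed, and other list members named were chosen after their values were seen. Macrophage and nerve sums without Lpl and Pmp22 were also formed after values were seen. Promoters are RefSeq sequences of GRCm38.p6. They were matched by symbol for 16 of 21 cholesterol synthesis genes, 19 of 23 fatty acid synthesis genes and 12 of the 16 genes that rose. Alternatives were DESeq2 1.42.0 (Wald test or size factors), limma-voom 3.58.1 with sample weights, no filter, non-robust dispersion, a replicate block, the sham libraries alone, each library left out, and the sham libraries with many epididymis or testis transcripts left out. Some genes, 1 of the 19 past the threshold among them, are not reported here by name. Replicate numbers were not used to pair the libraries in the main fit.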

Additional observations from a re-analysis of the deposited data

Results flagged for a closer look

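In 30 of 214 sets of 4 libraries (the named genes and marker sums in the sham groups), 1 library lay far from the other 3 by Dixon's ratio, above its 95% critical value. Chance does this in about 1 in 20 sets, and sets are not independent, since genes share libraries. Of these, 11 concerned Sham_Veh3 and 10 Sham_SHU3.

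Sham_Veh3 was the high vehicle library at the fatty acid synthesis genes Acly (1055.3 CPM), Scd1 (35591.3) and Acaca (1579.6), at the pentose phosphate genes G6pdx (284.9) and Tkt (1316.9), and at Srebf1 (591.9). It was also high at Fabp5 of fatty acid uptake (174.8 CPM), Decr1 of fatty acid oxidation (273.6) and Dido1 (189.1) and in the lymphocyte marker sum (43.74), and low at Tuba1a (112.5). Sham_SHU3 was the low SHU9119 library at Scd2 (622.2 CPM), Fmr1 (349.4), Ephb2 (15.26), Sc5d (148.4), Vldlr (92.84) and Ppp1r3d (18.1). It was the high one at Dido1 (134.9 CPM) and Agt (253.2), and in the sums of testis (1700.2) and ciliated epithelium markers (191.2).

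Sham_SHU2 was high at Mest (222.1 CPM), at Ucp1 (0.04118, the other 3 libraries being at 0) and in the skeletal muscle sum (67.13), and low at Clock (69.72). Sham_Veh4 was high at Dio2 (1.293 CPM), Ccl2 (10.45) and in the testis sum (3500.7). Sham_Veh1 was low at Tuba1b (259.9 CPM), and Sham_SHU1 was high in the endothelial sum (1866.7).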

How the results depend on the processing

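The count of 19 genes for SHU9119 in sham mice was 19 with DESeq2 size factors, 18 with non-robust dispersion and 14 with no low-count filter. DESeq2's Wald test gave 1178 (804 higher, 374 lower) and limma-voom 3874 (2122 higher, 1752 lower), and they gave 8 and 13 genes for the difference between surgeries. An adjusted p under 0.10, chosen after seeing the data, gave 564 (395 higher, 169 lower). The sham libraries alone gave 1 (1 higher, 0 lower, 3188 at an unadjusted p under 0.05). Leaving out 1 library at a time gave 0 to 982 genes (0 to 744 higher, 0 to 238 lower), and 0 to 1 for the difference between surgeries. Besides the libraries named in the report, leaving out Sham_Veh4 gave 2, VX_SHU2 5, VX_SHU4 2, VX_Veh3 1 and VX_Veh4 4. Without the 4 sham libraries rich in epididymis or testis transcripts, but with VX_Veh4 and VX_SHU4 kept, the count was 0 (0 higher, 0 lower, 4942 at an unadjusted p under 0.05). The cause was not tested.

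The replicate block gave 0 genes by edgeR (0 higher, 0 lower, 2954 at an unadjusted p under 0.05). Deviations of the 4 same-numbered pairs correlated at −0.598 to −0.24, and those of the other pairs at −0.185 to 0.459. The main fit used no pairing. Whether libraries of 1 number shared a batch or handling order was not tested.

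Adipoq, whose difference was near 0 (−0.01), turned to 0.19 with limma-voom, 0.01 with no filter, 0.03 with the replicate block, 0.02, 0.03, 0.19, 0.00 and 0.01 without Sham_SHU3, Sham_SHU4, Sham_Veh3, Sham_Veh4 and VX_Veh1, and 0.38 without the 4 libraries, with −0.08 at the lowest (without Sham_Veh1). The fatty acid synthesis median of 0.94 ranged from 0.73 to 1.26, the cholesterol synthesis median of 0.90 from 0.82 to 1.09, the extracellular matrix median of 0.42 from 0.35 to 0.59 and the fat mass median of 0.41 from 0.39 to 0.61. The other list medians moved by more than 1.5 times or changed sign. Without the 4 libraries the median was 1.11 for pentose phosphate genes, 0.12 for sterol sensing, 0.55 for glyceride assembly, 0.57 for fatty acid uptake, 0.37 for lipolysis, 0.58 for fatty acid oxidation, 0.86 for glycolysis, 0.46 for fat cell transcription factors, 0.37 for adipokines, 0.19 for insulin signalling, 0.65 for glycogen, 0.69 for tubulins, 1.24 for thermogenic genes and 0.60 for melanocortin genes. It turned positive there for lipogenic transcription (0.06), clock (0.15), glucocorticoid (0.29) and inflammatory genes (0.29). Thermogenic genes were at 0.26 with no filter. Without Sham_Veh1 the medians of glyceride assembly, lipolysis, adipokines and insulin signalling were 0.11, 0.08, 0.01 and 0.04. Fat cell transcription factors were at 0.11 without Sham_SHU1, lipogenic transcription at −0.05 without Sham_SHU4, and melanocortin genes at 0.18 in the sham libraries alone. Without Sham_SHU2 clock, glucocorticoid and inflammatory genes were at −0.28, −0.19 and −0.27.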

Other observations

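The blood list had 4 haemoglobin genes (Hba-a1, Hba-a2, Hbb-bs and Hbb-bt) listed at 0 in the 8 sham libraries, while its 5 other members had counts. The list summed to 48.3 to 55.9 CPM under vehicle and 53.0 to 58.6 CPM under SHU9119, led by the platelet gene Pf4. Skeletal muscle markers summed to 12.5 to 23.1 CPM and 14.8 to 67.1 CPM.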
